A study of Mus musculus with 8 samples.

Results

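The growth hormone and IGF axis genes of the liver were chosen by name as 10 genes: the receptor Ghr, its signal carrier Stat5b, the feedback inhibitors Socs2 and Cish, the repressor Bcl6, the secreted products Igf1 and Igfals, and the binding proteins Igfbp2, Igfbp3 and Igfbp4. All 10 were among the 41388 features counted and all 10 passed the filter on low counts, which left 12270 genes. They were measured by RNA-seq in livers of 8 db/db mice on the C57B/6J strain, 4 given an adenovirus carrying GFP (AdGFP) and 4 given an adenovirus carrying the NAD salvage enzyme NAMPT (AdNAMPT). Both groups were db/db, so each carried the defective leptin receptor that makes these mice obese and diabetic, and the comparison asked what NAMPT delivery added to that state. Per the labels, littermates were randomised at 5 weeks, the virus went in through the tail vein, and the livers came from mice aged 10 weeks. Overexpression lasted 4 to 5 weeks by the series text, whereas the methods and a legend on adipose tissue name shorter times after adenovirus delivery, so the time behind these livers is uncertain. The study's methods name males. The genotype label reads control or NAMPT overexpression rather than db/db, which was taken from the sample titles. The study calls the overexpression hepatocyte-specific, the promoter that drove the transgene is not given in the sources used here, and no lean or uninjected group was part of the comparison.

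Growth hormone from the pituitary binds its receptor on hepatocytes, where the kinase JAK2 phosphorylates STAT5, and STAT5 dimers then switch on genes such as Igf1, Igfals, Socs2 and Cish. IGF1 leaves the liver bound to IGFBP3 and to the acid-labile subunit encoded by Igfals, while SOCS2 and CIS, the product of Cish, dampen the receptor and BCL6 represses many of the genes that STAT5 activates. In mice the secretion of growth hormone is pulsatile in males and nearly continuous in females, and this pattern sets the sex-biased expression of many liver genes.

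Libraries held 12006713 to 19879814 counts. Albumin and 3 other hepatocyte markers summed to 94694 to 118575 CPM (counts scaled to the library total) in AdGFP and 95145 to 119179 CPM in AdNAMPT. Nampt mRNA lay at 102 to 153 CPM in AdGFP and 120.5 to 178 CPM in AdNAMPT, with overlapping groups, and the difference did not pass the test (adjusted p = 0.915, limma), so every direction given here rests on the labels. AdNAMPT replicate 1 stood apart from the other 7 libraries. After TMM scaling, which corrects library totals for composition, it held the highest or the lowest value for 44.1% of the 12270 genes. It did so for 4 of the 10 axis genes, as the highest for Socs2, Cish and Igfbp4 and the lowest for Igfbp3. In CPM as deposited it was also the highest for Igf1, Igfbp2 and Stat5b. Limma gave this library the lowest sample weight (0.440, against 0.811 to 1.41 in the others). Where an axis gene or the median of a list rests on it, values are given with and without it.

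No axis gene passed the test at an adjusted p of 0.05 with limma, against 34 of 12270 genes in all (0.277%). The edgeR quasi-likelihood test also called 0 of the 10 and the DESeq2 Wald test called 1, Cish. At an unadjusted p under 0.05 there were 4 of the 10, beside 9.69% of all genes. Cish was the 1 with a higher estimate in AdNAMPT (4.65% of all genes) and Ghr, Igf1 and Igfals were the 3 with a lower one (5.04%). Cish passed the filter on low counts only through its AdNAMPT values. Without AdNAMPT replicate 1 these same 4 genes had an unadjusted p under 0.05, beside 10.5% of all genes, and again none passed the adjusted threshold (0.305% of all genes). After TMM scaling, which corrects library totals for composition, the groups did not overlap for Cish and Ghr (2 of 10, against 4.79% of all genes). In CPM as deposited they did not overlap for Cish alone (1 of 10, against 8.22%). The median log2 fold change of the 10 genes was -0.15, with 7 estimates below 0 and 3 above, while that of all genes was 0.00. In whole liver RNA, fewer cells of a type and less RNA per cell cannot be told apart.

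**Figure D1:**
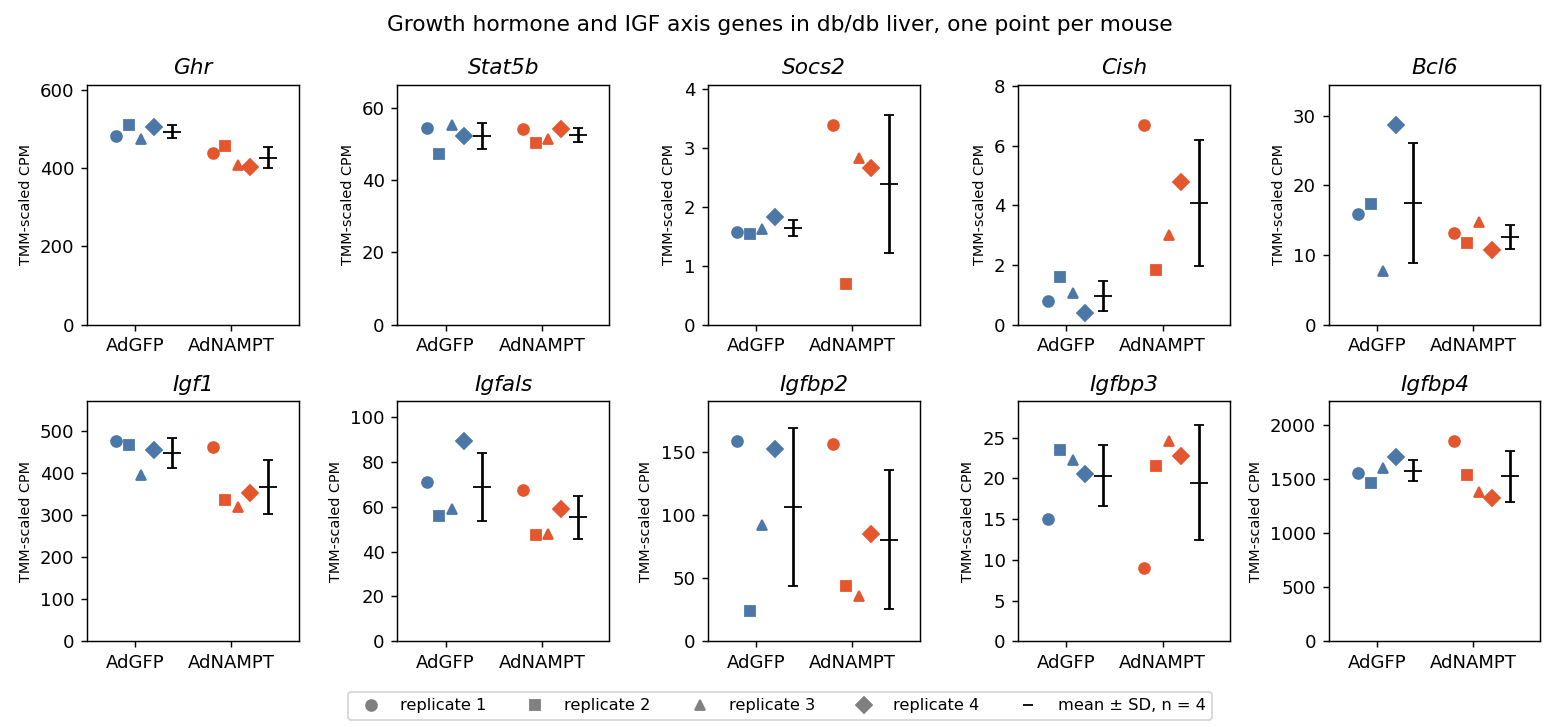
TMM-scaled CPM of the 10 axis genes (vertical axes, each from 0) in the 4 AdGFP mice (blue) and the 4 AdNAMPT mice (orange), with a symbol for each replicate number and the mean ± SD (n = 4) beside each group. Cish and Ghr are the panels in which the groups do not overlap, and in the Igf1 panel AdNAMPT replicate 1 lies among the AdGFP mice.

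The promoters were inspected for the letters TTCNNNGAA, the usual recognition pattern of STAT5, because several of these genes are textbook STAT5 targets. The pattern is its own reverse complement, so both strands were searched at once. RefSeq start-site windows of 300 bases, 250 before and 50 from the start site, were taken for 27025 genes on GRCm38.p6. At least 1 match was held by 2726 of 32851 windows (8.30%), and 9.55% of genes had a match in some window. Windows were given for 9 of the 10 axis genes, 15 windows in all, and 3 of the 9 genes had a match: Cish, Igfals and Bcl6. No match says only that the letters are absent from that window.

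The Cish matches began at the start site itself and 11 bases after it, and 150 of all windows (0.457%) held 2 or more. The stretch at chr9:107296654-107296683, plus strand, is exonic in the gene models and is shown 5′ to 3′, with the matches in capitals, since Cish had the smallest p of the axis genes.
Cish: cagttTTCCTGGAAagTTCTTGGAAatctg

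Igfals had a match 236 bases before its first start site and another 58 bases before a start site 387 bases further downstream. The non-exonic parts of those windows, chr17:24877594-24877655 and chr17:24877981-24878214 on the plus strand, are shown because Igfals is among the 3 genes with a lower estimate at an unadjusted p under 0.05.
Igfals first window: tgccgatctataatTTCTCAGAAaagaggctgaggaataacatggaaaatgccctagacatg
Igfals second window: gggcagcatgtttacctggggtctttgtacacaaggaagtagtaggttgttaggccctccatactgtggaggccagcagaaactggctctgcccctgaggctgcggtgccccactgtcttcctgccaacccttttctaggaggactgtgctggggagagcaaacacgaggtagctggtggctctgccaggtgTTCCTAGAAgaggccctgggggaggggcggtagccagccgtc

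Bcl6 had 3 matches in the window of its downstream start site, which lies 7569 bases inside the gene from the first one, at 168, 122 and 88 bases before that start site. Only 11 of 32851 windows (0.0335%) held 3 or more, which is why this window is shown. The printed bases are chr16:23981284-23981533 on the minus strand, and none is exonic. A stretch just after this RefSeq start site was found in no Bcl6 transcript of the gene models (GENCODE M21). The matching stretch after the first start site was found in them. The window of the first Bcl6 start site held a single match 118 bases before its start site.
Bcl6 downstream window: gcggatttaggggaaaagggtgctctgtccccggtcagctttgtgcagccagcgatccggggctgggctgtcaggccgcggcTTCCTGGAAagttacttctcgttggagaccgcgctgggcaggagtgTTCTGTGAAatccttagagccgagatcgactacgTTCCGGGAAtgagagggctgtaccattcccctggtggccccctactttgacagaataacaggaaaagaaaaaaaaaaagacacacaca

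**Figure D2:**
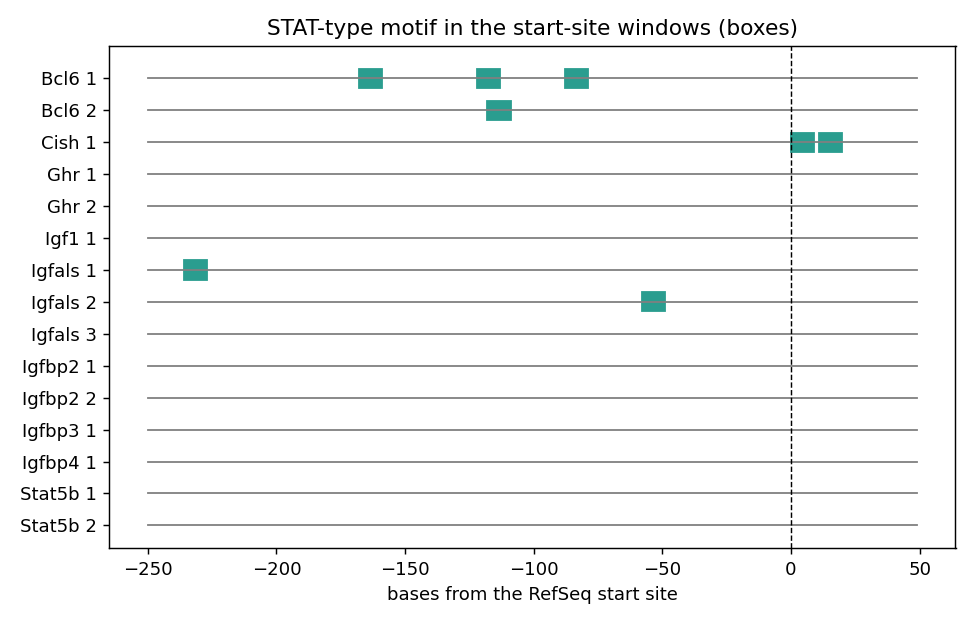
Matches to TTCNNNGAA (boxes) in the RefSeq start-site windows of the 9 axis genes that have them, by distance in bases from the start site (dashed line at 0). Boxes appear in 5 of the 15 windows, all of them windows of Bcl6, Cish or Igfals. The third window of Igfals and the windows of Ghr, Igf1, Igfbp2, Igfbp3, Igfbp4 and Stat5b are empty.

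Expression per kilobase of exon spanned a wide range. Igfbp4 was the most abundant, with a median of 341 RPKM over the 8 mice and a range of 301 to 433, and no other axis gene reached that range. Ghr (50.4), Igfbp2 (47.1), Igf1 (40.8) and Igfals (27.3) came next by median RPKM, and each neighbouring pair in this order overlapped. Igfals and Stat5b (9.45) did not overlap, whereas Stat5b, Igfbp3 (6.85) and Bcl6 (2.15) each overlapped the next. Cish and Socs2 were at the bottom, at 0.259 and 0.173 RPKM, overlapped each other and did not overlap Bcl6. By median RPKM, Igfbp4 lay at the 98.6th percentile of tested genes, whereas Cish lay at the 3.28th and Socs2 at the 1.22nd percentile, so their values rest on few reads.

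**Figure D3:**
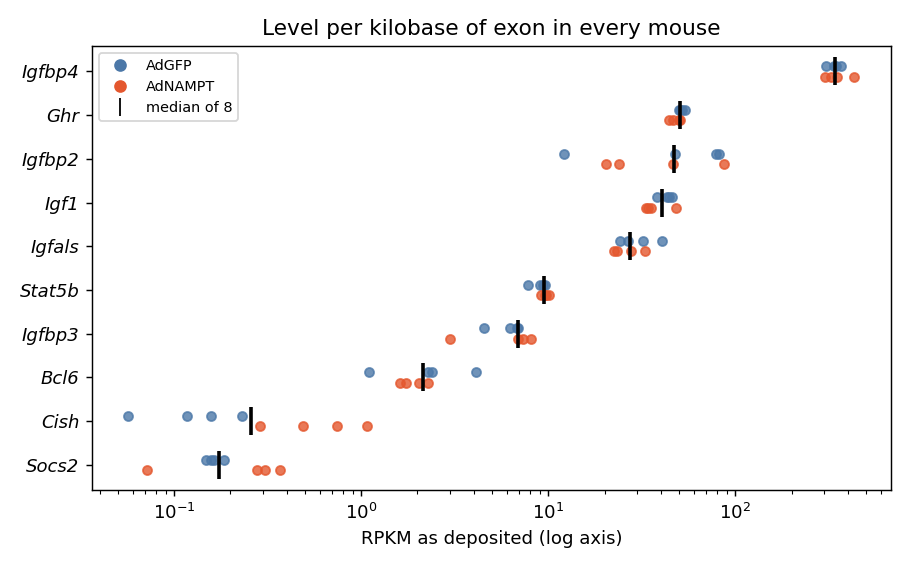
RPKM as deposited on a log axis for the 10 axis genes in every mouse (AdGFP blue, AdNAMPT orange), with the median of the 8 mice as a bar. Igfbp4 stands alone at the top, and Cish and Socs2 lie at the bottom with medians of 0.259 and 0.173 RPKM.

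Ghr, the growth hormone receptor (ENSMUSG00000055737, chromosome 15, 3317760 to 3583492, minus strand, GRCm38), reached 461, 470.3, 454 and 485 CPM in the AdGFP mice against 455, 458, 423 and 402 CPM in the AdNAMPT mice, here and below in the order of the replicate numbers. AdNAMPT replicates 3 and 4 were below every AdGFP mouse, and the other two reached the lower AdGFP values. With TMM scaling the AdGFP mice lay at 475 to 511 and the AdNAMPT mice at 402 to 457 TMM-scaled CPM, and the groups no longer touched. The estimate was 0.872-fold (95% CI 0.780 to 0.974), a log2 fold change of -0.20 ± 0.07 (SE), with adjusted p = 0.450 (limma). Ghr varied little between mice of a group, with a pooled SD of 0.0724 on the log2 scale, the 4.60th percentile of tested genes. With library size as the only scaling, the estimate was -0.11 and its unadjusted p was above 0.05, as it was in 4 of 16 alternatives.

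Stat5b, the transcription factor downstream of the receptor (ENSMUSG00000020919, chromosome 11, 100780731 to 100850724, minus strand), reached 51.8, 43.4, 52.9 and 49.9 CPM in AdGFP against 56.1, 50.4, 53.2 and 54.2 CPM in AdNAMPT. The groups overlapped, and AdGFP replicate 2 was the lowest mouse. The fold was 0.986 (95% CI 0.888 to 1.10; adjusted p = 0.956, limma), and its sign turned in 7 of 16 alternatives.

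Cish, a feedback inhibitor that is among the fastest STAT5 targets (ENSMUSG00000032578, chromosome 9, 107296026 to 107302784, plus strand), was covered by 11, 21, 17 and 5 reads in the AdGFP mice against 83, 27, 62 and 81 reads in the AdNAMPT mice. These were 0.752, 1.48, 1.02 and 0.365 CPM in AdGFP and 6.91, 1.84, 3.12 and 4.77 CPM in AdNAMPT. All 4 AdNAMPT mice were above all 4 AdGFP mice, with AdNAMPT replicate 2 just above AdGFP replicate 2 and AdNAMPT replicate 1 the highest. In AdGFP only replicates 2 and 3 were above 1 CPM, fewer than the 3 libraries of the filter. Cish thus passed the filter through the group in which it was higher. Without the filter its log2 fold change was 1.95, with adjusted p = 0.266 (limma). With the filter the estimate was 3.76-fold (95% CI 1.84 to 7.67), a log2 fold change of 1.91 ± 0.47 (SE), with adjusted p = 0.228 (limma). Without AdNAMPT replicate 1 it was again 1.91, with adjusted p = 0.153. The DESeq2 Wald test called Cish, at a log2 fold change of 2.08 and adjusted p = 0.000708, where 0.611% of all genes were called, while edgeR's quasi-likelihood test gave adjusted p = 0.208. The unadjusted p was under 0.05 in 16 of 16 alternatives, and the adjusted p was at most 0.05 in 1 of 16, over a range of 0.000708 to 0.535.

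Cish and Socs2 are also expressed in lymphocytes. The summed level of 3 lymphocyte markers (Cd3e, Cd3g and Cd79a) was 0.494 to 0.820 CPM in AdGFP and 0.916 to 1.56 CPM in AdNAMPT. These sums did not overlap. Of single tested genes 8.22% did not overlap in CPM, but that share covers genes above the filter and is no matched background for this sum. None of the 3 passed the filter, and each of them alone overlapped between the groups. Most of the sum was Cd3g, at 0.299 to 0.615 CPM in AdGFP and 0.583 to 1.31 CPM in AdNAMPT. Cd3e had no read in 3 AdGFP mice and at most 6 reads in any mouse, and Cd79a had 1 to 4 reads, so the sums rest on few reads. The mouse with the highest Cish, AdNAMPT replicate 1, had the lowest lymphocyte sum of its group (0.916 CPM), and the mouse with the lowest Cish of that group, AdNAMPT replicate 2, had a sum of 1.43 CPM. The part of these markers in the Cish values was not tested. Cish shares exons with Gm17040 and Gm17041 on the other strand, which had 0 to 5 reads and 0 reads, and whether the counting used strand is not stated.

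Socs2, a feedback inhibitor whose loss gives oversized mice (ENSMUSG00000020027, chromosome 10, 95385362 to 95417180, minus strand), had 22, 20, 26 and 24 reads in AdGFP and 42, 10, 58 and 45 reads in AdNAMPT. In CPM the AdGFP mice were close together at 1.504, 1.41, 1.55 and 1.75, whereas the AdNAMPT mice were at 3.498, 0.683, 2.92 and 2.65. Replicates 1, 3 and 4 of AdNAMPT lay above every AdGFP mouse and replicate 2 lay below every one. The SD of log2 CPM was 0.105 in AdGFP and 0.967 in AdNAMPT (n = 4 each). At 10 to 58 reads a mouse counting error is part of both values, and the difference in spread was not tested. The log2 fold change was 0.08 ± 0.43 (SE; adjusted p = 0.974, limma). Other fits of all 8 mice gave 0.54 with edgeR, 0.54 with DESeq2, 0.34 without sample weights and 0.51 with a replicate block, and none passed the adjusted threshold. Without AdNAMPT replicate 2 it was 0.75 (adjusted p = 0.215, limma), without replicate 3 it was -0.57, and without replicate 4 it was -0.38. The sign for Socs2 thus changed when AdNAMPT replicate 3 or replicate 4 was left out. AdNAMPT replicate 2 had the lowest level of its group in both feedback inhibitors.

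Bcl6, the repressor of STAT5 targets (ENSMUSG00000022508, chromosome 16, 23965052 to 23988852, minus strand), reached 15.2, 15.96, 7.41 and 27.5 CPM in AdGFP against 13.7, 11.7, 15.2 and 10.8 CPM in AdNAMPT. The AdGFP mice held both the highest value (replicate 4) and the lowest (replicate 3), and all AdNAMPT mice lay between them. The log2 fold change was -0.31 ± 0.35 (SE; adjusted p = 0.828, limma). Without AdGFP replicate 3 it was -0.73 (adjusted p = 0.415, limma) and without AdGFP replicate 4 it was 0.03. An exon overlaps Gm37419 on the other strand, which was not analysed here.

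Igf1, the growth factor the liver releases into blood (ENSMUSG00000020053, chromosome 10, 87858265 to 87937042, plus strand), reached 452, 429.5, 379 and 436 CPM in AdGFP against 476, 336, 329.8 and 353 CPM in AdNAMPT, from 4927 to 6615 reads a mouse. AdNAMPT replicates 2 to 4 were below every AdGFP mouse, whereas AdNAMPT replicate 1 was the highest of the 8 in CPM and lay within the AdGFP range after TMM scaling. The estimate was 0.785-fold (95% CI 0.673 to 0.915), a log2 fold change of -0.35 ± 0.10 (SE), with adjusted p = 0.349 (limma). Without AdNAMPT replicate 1 it was -0.41 ± 0.09 (SE), with adjusted p = 0.137. The unadjusted p was under 0.05 in 16 of 16 alternatives and the adjusted p was above 0.05 in each, from 0.137 to 0.629.

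Igfals, which encodes the acid-labile subunit (ENSMUSG00000046070, chromosome 17, 24878770 to 24882008, plus strand), reached 67.6, 51.3, 56.6 and 85.4 CPM in AdGFP against 69.7, 47.5, 49.5 and 58.8 CPM in AdNAMPT. The groups overlapped, and AdNAMPT replicates 2 and 3 were the only mice below every AdGFP mouse. The estimate was 0.754-fold (95% CI 0.598 to 0.952; log2 fold change -0.41 ± 0.15 SE, adjusted p = 0.453, limma). Without AdNAMPT replicate 1 it was -0.43 with adjusted p = 0.375. Without AdGFP replicate 4 it was -0.26 with adjusted p = 0.649 (limma) and an unadjusted p above 0.05. The unadjusted p was under 0.05 in 10 of 16 alternatives. As for Igf1, AdNAMPT replicate 1 was the highest of its group.

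**Figure D4:**
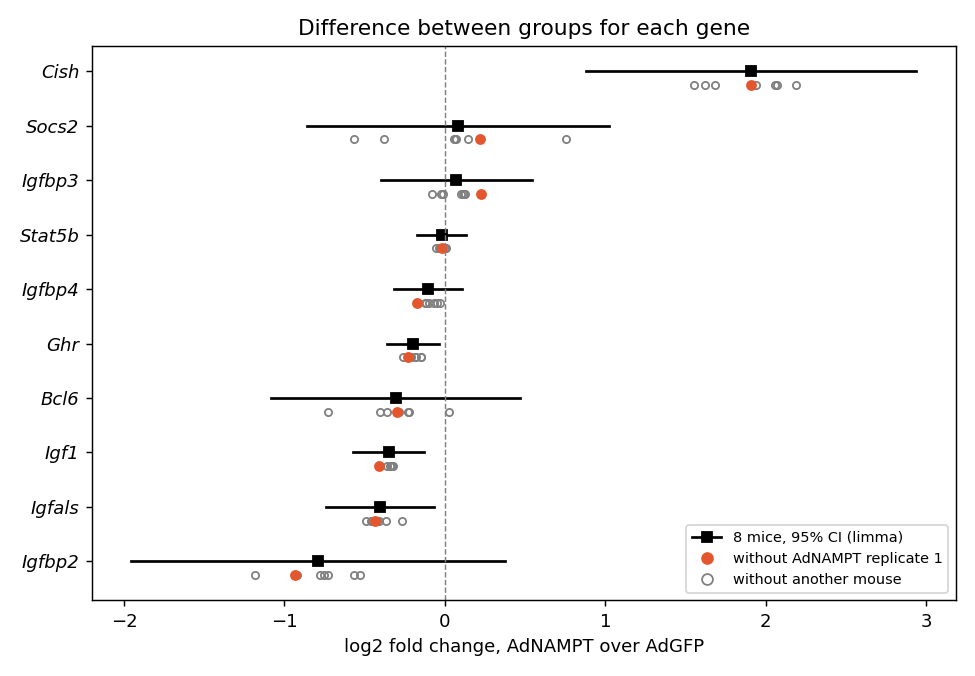
Log2 fold change of AdNAMPT over AdGFP for the 10 axis genes (squares with 95% CI from limma, 8 mice), with the estimate without AdNAMPT replicate 1 (orange) and without each other mouse in turn (open circles). The intervals of Cish, Ghr, Igf1 and Igfals do not include 0 before adjustment, and the open circles of Socs2 run from -0.57 to 0.75.

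Igfbp2, a binding protein that insulin and growth hormone lower (ENSMUSG00000039323, chromosome 1, 72824503 to 72852474, plus strand), reached 151, 22.4, 88.3 and 146 CPM in AdGFP against 162, 44.2, 37.5 and 85.5 CPM in AdNAMPT. In CPM the highest mouse was in AdNAMPT and the lowest in AdGFP. After TMM scaling AdGFP replicate 1 was the highest, at 159 against 157 TMM-scaled CPM in AdNAMPT replicate 1. The pooled SD of log2 CPM, 1.12, was at the 99.5th percentile of tested genes. The fold was 0.579 (95% CI 0.258 to 1.30; adjusted p = 0.679, limma). Without AdGFP replicate 2 the log2 fold change went from -0.79 to -1.18 (adjusted p = 0.313, limma), and over all 16 alternatives it ran from -1.18 to -0.34.

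Igfbp3, the main carrier of IGF1 in blood and in liver a product of the non-parenchymal cells (ENSMUSG00000020427, chromosome 11, 7206086 to 7213923, minus strand), reached 14.3, 21.7, 21.3 and 19.7 CPM in AdGFP against 9.33, 21.6, 25.4 and 22.8 CPM in AdNAMPT. In CPM AdNAMPT replicate 1 was the lowest of the 8 mice and replicates 3 and 4 the highest. The log2 fold change was 0.07 ± 0.21 (SE; adjusted p = 0.948, limma) and 0.22 without AdNAMPT replicate 1 (adjusted p = 0.626, limma). Kupffer cell markers summed to 175 to 287 CPM in AdNAMPT and 238 to 296 CPM in AdGFP, lowest in AdNAMPT replicate 1, and 7 of 7 had lower estimates with a median log2 fold change of -0.44. At an unadjusted p under 0.05 (limma) there were 3 of the 7, beside 9.69% of all genes. Without AdNAMPT replicate 1 the Kupffer median was -0.31, again with 7 of 7 lower, and 2 had an unadjusted p under 0.05, beside 10.5% of all genes. The part of these markers in the Igfbp3 values was not tested.

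Igfbp4, the most abundant axis gene (ENSMUSG00000017493, chromosome 11, 99041244 to 99054392, plus strand), reached 1483, 1345, 1532 and 1629 CPM in AdGFP against 1910, 1541, 1431 and 1330 CPM in AdNAMPT. The AdNAMPT mice held both the highest value (replicate 1) and the lowest (replicate 4). The fold was 0.930 (95% CI 0.802 to 1.08; adjusted p = 0.776, limma), and the log2 fold change ran from -0.18 to -0.02 over 16 alternatives.

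The 10 genes differed in how much they varied between mice of a group. Ghr and Stat5b were among the steadiest genes of the liver, at the 4.60th and 7.26th percentile of the pooled SD, and Igfbp4 (44.5th) and Igf1 (53.2nd) were near the middle. Igfbp3, Bcl6, Socs2, Cish and Igfbp2 were between the 94.1st and the 99.5th percentile. Socs2 and Cish had few reads, so counting error is part of their spread. The genes whose pattern over the 8 libraries was most like that of Igf1 were Zhx1 (Pearson r = 0.967), Haus3 (0.963) and BB365896 (0.960), and for Bcl6 they were Tcea2 (0.953), Ints14 (0.950) and Smndc1 (0.919). These are descriptions over 8 libraries that share depth and the AdNAMPT replicate 1 library, picked as the highest of 12270 genes.

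A wider list of 35 genes of growth hormone receptor signalling and the IGF system was read from the same fit. Gh itself, a pituitary gene, had no read in any library, and 29 of the 35 passed the filter. None passed the adjusted threshold (limma), and 3 of the 29 had an unadjusted p under 0.05, beside 9.69% of all genes. Of the estimates 16 were above 0 and 13 below, and the median log2 fold change was 0.01 against 0.00 for all genes. Without AdNAMPT replicate 1 the median was 0.03 and 4 of the 29 had an unadjusted p under 0.05, beside 10.5% of all genes. Among signal carriers, Jak2 had a log2 fold change of 0.04 (adjusted p = 0.919) and Stat5a of 0.01 (adjusted p = 0.988, limma), and among receptors Insr was at -0.05 (adjusted p = 0.855) and Igf1r at 0.33 (adjusted p = 0.686, limma).

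Onecut1, a hepatocyte transcription factor that growth hormone induces (ENSMUSG00000043013, chromosome 9, 74861921 to 74891781), reached 3.35, 4.38, 5.38 and 4.90 CPM in AdGFP against 24.2, 6.42, 8.75 and 10.4 CPM in AdNAMPT. The groups did not overlap, and AdNAMPT replicate 1 was the highest mouse, as it was for Cish. The log2 fold change was 0.92 ± 0.29 (SE; adjusted p = 0.385, limma) and 1.34 with edgeR's quasi-likelihood test (adjusted p = 0.414). The DESeq2 Wald test called Onecut1 at 1.35 with adjusted p = 0.0151, where 0.611% of all genes were called. No estimate without AdNAMPT replicate 1 is given for Onecut1. Pappa, the protease that cleaves IGFBP4, reached 145, 338.5, 188 and 148 CPM in AdGFP against 321, 288, 460.2 and 231 CPM in AdNAMPT (log2 fold change 0.69 ± 0.26 SE, adjusted p = 0.453, limma). AdGFP replicate 2 overlapped the AdNAMPT mice, while the other 3 AdGFP mice lay below all of them. Socs3, an inhibitor of cytokine receptors, had the third highest estimate, 0.45 ± 0.26 (SE; adjusted p = 0.636, limma), and was at 2.54 to 3.51 CPM in AdGFP and 2.53 to 5.66 CPM in AdNAMPT. As for Socs2, AdNAMPT replicate 2 was the lowest of its group.

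The lowest estimates of the wider list were those of Igfbp1, Prlr and Stat3. Igfbp1, a binding protein that insulin lowers, reached 25.6, 16.4, 110.4 and 33.3 CPM in AdGFP against 29.5, 18.4, 26.1 and 20.2 CPM in AdNAMPT. AdGFP replicate 3 was far above the other 7 mice, and the log2 fold change was -0.91 ± 0.49 (SE; adjusted p = 0.603, limma). Prlr, the prolactin receptor, was at 124 to 155 CPM in AdGFP and 68.6, 128, 121 and 139 CPM in AdNAMPT, with AdNAMPT replicate 1 the lowest of the 8 (log2 fold change -0.33 ± 0.15 SE, adjusted p = 0.527, limma). Stat3, the carrier of IL-6 signals, had a log2 fold change of -0.21 ± 0.07 (SE; adjusted p = 0.392, limma), with no overlap in TMM-scaled CPM (101 to 115 in AdGFP, 90.8 to 95.4 in AdNAMPT) and overlap in CPM as deposited.

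Genes set by the pattern of growth hormone secretion were read as the axis's output. Of 20 genes known to be higher in male mouse liver, 15 were tested and none passed the adjusted threshold with limma, edgeR or DESeq2. At an unadjusted p under 0.05 (limma) there was 1 of the 15, beside 9.69% of all genes. The median log2 fold change was 0.09 with 9 estimates above 0. After TMM scaling AdNAMPT replicate 1 was the highest of the 8 mice in 13 of the 15. Without it the median was -0.32, with 6 estimates above 0 and 9 below. There were then 6 of the 15 at an unadjusted p under 0.05 (limma), all lower, beside 10.5% of all genes. The mean log2 CPM of the list was 5.71, 5.06, 5.42 and 5.35 across the AdGFP mice and 7.41, 5.52, 4.88 and 5.04 across the AdNAMPT mice. AdNAMPT replicate 1 lay above all other mice, and replicates 3 and 4 lay below all AdGFP mice. The median also lay below 0 without AdNAMPT replicate 2 (-0.26) and without AdGFP replicate 4 (-0.11), and it was 0.87 with edgeR, 0.89 with DESeq2 and 0.33 without sample weights. Neither the direction nor the size for male-biased genes was stable across these settings.

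Mup3, a major urinary protein, reached 1666, 971, 1513 and 1406 CPM in AdGFP against 5611, 2058, 1251 and 971 CPM in AdNAMPT. Mup genes are near-identical copies, and by the study's methods only uniquely aligned reads were counted, so reads shared between copies were left out. Cyp2d9, a male-biased steroid hydroxylase, reached 247, 83.7, 101 and 224 CPM in AdGFP against 1131, 268, 176 and 138 CPM in AdNAMPT. Ugt2b1, a glucuronosyltransferase, reached 923, 599.9, 801 and 734 CPM in AdGFP against 1349, 667, 452 and 506 CPM in AdNAMPT. In all 3, AdNAMPT replicate 1 was the highest mouse and groups overlapped, with adjusted p of 0.897, 0.754 and 0.601 (limma). Cyp4a12a, a fatty acid hydroxylase, varied less, at 182 to 289 CPM in AdGFP and 243 to 308 CPM in AdNAMPT (adjusted p = 0.795, limma).

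Of 28 genes known to be higher in female mouse liver, 25 were tested and none passed the adjusted threshold with limma, edgeR or DESeq2. The median log2 fold change was -0.26, with 6 estimates above 0 and 19 below. Of the 25, 4 had an unadjusted p under 0.05 (limma), 1 higher and 3 lower, beside 9.69% of all genes. AdNAMPT replicate 1 was the lowest of the 8 mice in 20 of the 25. Without it the median was -0.04, with 12 estimates above 0 and 14 below of 26 tested. Of these, 6 had an unadjusted p under 0.05 (limma), 2 higher and 4 lower, beside 10.5% of all genes. Over all 16 alternatives the median ran from -0.47 to -0.04. The mean log2 CPM of the list was 4.58, 4.802, 4.93 and 4.91 in AdGFP and 2.43, 4.71, 4.89 and 4.67 in AdNAMPT, so that replicate 1 alone lay outside a narrow range.

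Cyp2b13, a female-biased cytochrome P450, reached 348, 298, 326 and 499 CPM in AdGFP against 10.2, 259, 192 and 180.4 CPM in AdNAMPT. All 4 AdNAMPT mice lay below all AdGFP mice, with replicate 1 far below (log2 fold change -1.43 ± 0.62 SE, adjusted p = 0.503, limma). Cyp2b9, its close relative, reached 500.4 to 681 CPM in AdGFP against 164, 541, 565 and 553 CPM in AdNAMPT. Cyp17a1, a steroid hydroxylase, was at 122 to 254 CPM in AdGFP and 55.6, 214, 252 and 218 CPM in AdNAMPT. For both genes AdNAMPT replicate 1 was the lowest of the 8 mice, and adjusted p were 0.631 and 0.919 (limma). Hamp2, a relative of the iron hormone hepcidin, varied far more, at 4.99, 188, 142 and 279 CPM in AdGFP and 59.5, 346, 187 and 77.7 CPM in AdNAMPT. Its lowest mouse was AdGFP replicate 1, the groups overlapped, and adjusted p was 0.816 (limma). Cux2, a female-biased repressor named here after its values were seen, was the 1 gene of the list with a higher estimate at an unadjusted p under 0.05. It reached 0.478, 0.847, 0.538 and 0.512 CPM in AdGFP against 0.416, 1.57, 1.66 and 1.77 CPM in AdNAMPT (log2 fold change 1.25 ± 0.37 SE, adjusted p = 0.357, limma). These were 7, 12, 9 and 7 reads in AdGFP against 5, 23, 33 and 30 reads in AdNAMPT. Only AdNAMPT replicates 2 to 4 were above 1 CPM, so Cux2 passed the filter through the group in which it was higher. AdNAMPT replicate 1 was the lowest mouse and the other 3 AdNAMPT mice were the highest.

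**Figure D5:**
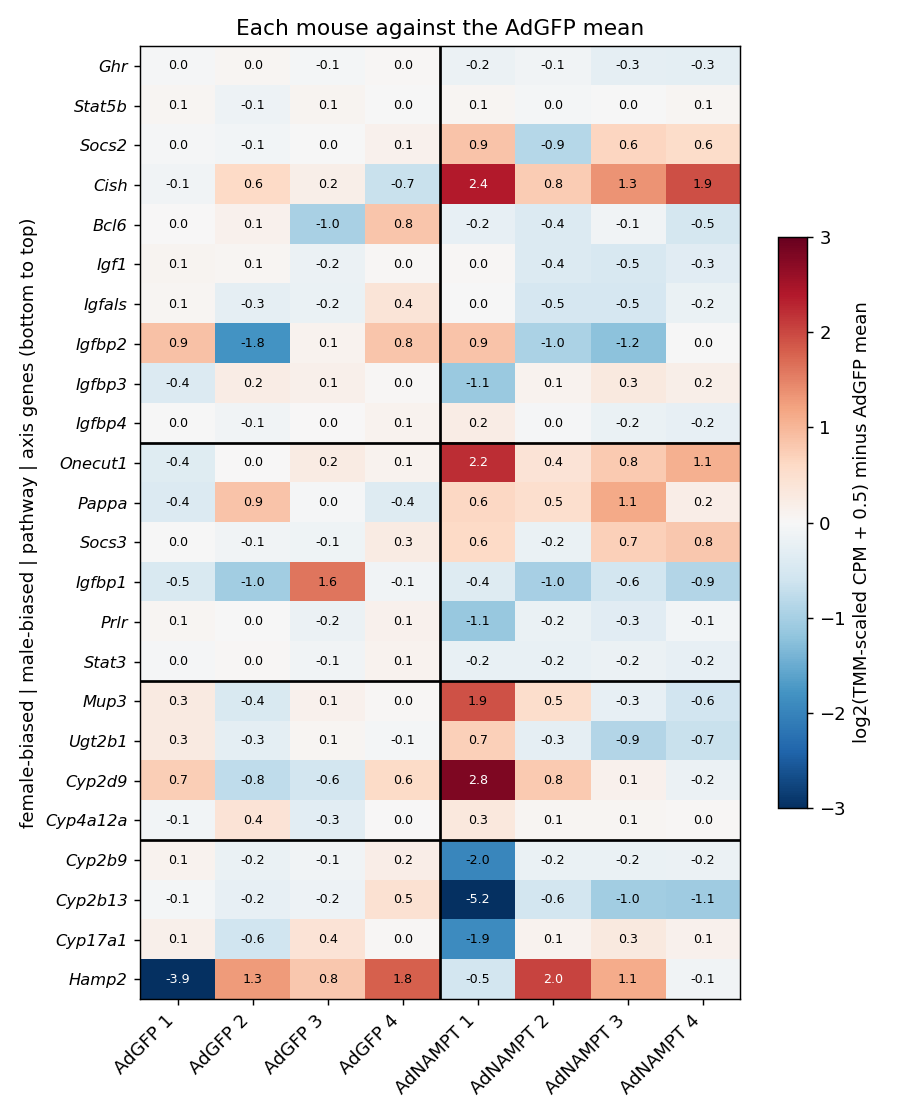
Log2 of TMM-scaled CPM plus 0.5 in each of the 8 mice (columns) minus the AdGFP mean, for the axis genes, the wider pathway, and male-biased and female-biased genes (rows, top to bottom), with the value in each cell and colours that saturate at 3. The AdNAMPT replicate 1 column runs from 2.8 in Cyp2d9 to -5.2 in Cyp2b13, while its Igf1 value, 0.0, is that of the AdGFP mice.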

How the data were processed

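Liver RNA of 8 db/db mice was compared, 4 AdGFP and 4 AdNAMPT, grouped by sample title. The study's methods state single 50-base reads, STAR alignment to Ensembl release 76 and featureCounts on uniquely aligned, unambiguous reads; the submitters' processing notes name STAR 2.4.0b, featureCounts 1.4.5 and GRCm38. Labels name a Ribo-Zero kit, the methods poly-A selection, and strand is not stated. The deposited counts give whole reads for each gene. The deposited CPM are counts scaled to the library total, and the deposited RPKM are those CPM per kilobase of exon; recomputing both from the counts gave the same values.

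Symbols came from GENCODE M21 (40340 of 41388 features matched). Following the study, 355 ribosomal RNA features and genes not above 1 CPM in at least 3 libraries were left out (12270 kept; 2 libraries where 1 was left out). Counts were TMM-scaled and fitted in limma (voomWithQualityWeights, then lmFit and eBayes) on group alone, with Benjamini-Hochberg adjustment over all tested genes and a threshold of 0.05. Log2 fold changes are AdNAMPT over AdGFP, weighted by library, and need not equal the ratio of mean CPM. Likeness used log2 TMM-scaled CPM with a prior count of 2. The p-values set the difference between groups against the spread between mice.

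The members and all lists were chosen with earlier results of these data known. Text names all members, Gh, the 3 highest and 3 lowest estimates of the wider list, the 4 most abundant genes of each sex-biased list, any called gene, and the 3 genes most like Igf1 and Bcl6; a few others, marked or needed beside a result, were named after their values were seen. Of 5 hepatocyte markers 4 matched, and a gene of the lymphocyte list and a gene of the female-biased list are not reported here. Alternatives were edgeR's quasi-likelihood test, the DESeq2 Wald test, no sample weights, DESeq2 size factors, library size only, no filter, a mean count of at least 10, replicate number as a block, and each library left out. Libraries held 12006713 to 19879814 counts, so 3 counts equal 0.151 to 0.250 CPM, a limit for counting error only. Replicates differed by more than sampling noise (chi-square per degree of freedom 12.2 to 90.1). The fits were tested on simulated counts. Fits ran in R 4.3.3 with limma 3.58.1, edgeR 4.0.16 and DESeq2 1.42.0; tables and plots were made with pandas 2.3.3, scipy 1.17.1, numpy 2.4.6 and matplotlib 3.10.9 under Python 3.11.15.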

Additional observations from a re-analysis of the deposited data

Results flagged for a closer look

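Dixon's test for a value far from the others of its group was applied to 27 values in each of the 2 groups, 54 in all, where chance gives about 1 in 20, or 2.7. It picked out 4, all of them AdNAMPT replicate 1. Igf1 was at 476 CPM in that mouse against 329.8 to 353 CPM in the other 3 AdNAMPT mice. The male-biased Cyp2d9 was at 1131 CPM against 138 to 268 CPM. The female-biased Cyp2b9 was at 164 CPM against 541 to 565 CPM, and the mean log2 CPM of the female-biased list was 2.43 against 4.67 to 4.89.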

How the results depend on the processing

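Over 16 alternatives no axis gene passed the adjusted threshold except with DESeq2, which called 1 of the 10 (Cish, 2.08), 1 gene of the wider list (Onecut1) and 75 genes in all. With library size only, the median of all genes was 0.0859, the wider list's median was 0.0905, and 2 axis genes (Cish and Igf1) had an unadjusted p under 0.05. Leaving out each mouse gave 2 to 5 such genes, the 2 without AdGFP replicate 4, and 28 to 38 called genes in all. The estimate of Igfbp3 turned with edgeR (-0.0494), DESeq2 (-0.0560), no sample weights (-0.0938) and no filter (-0.0239), and that of Stat5b turned with edgeR (0.00789), DESeq2 (0.00876), no sample weights (0.00910) and library size only (0.0622). Leaving out each mouse, the log2 fold change ran from -0.0785 to 0.224 in Igfbp3, from -0.0548 to 0.00890 in Stat5b, from -0.73 to 0.0284 in Bcl6 and from -0.57 to 0.75 in Socs2. The causes were not tested. Correlations of same-numbered deviations were 0.23, -0.05, 0.21 and 0.01, and those of differently numbered mice ran from -0.30 to 0.24. So few values do not settle whether the replicate numbers pair the mice. With the replicate block 41 genes were called, no axis gene was, 4 had an unadjusted p under 0.05, and Igfbp3 (-0.0124) and Stat5b (0.000982) turned. The block changed no other call. Depth limits Cish and Socs2 most, since they had 5 to 83 and 10 to 58 reads a mouse.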

Other observations

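Markers of the other liver cells were read beside the axis genes. Sinusoidal endothelial markers summed to 271 to 312 CPM in AdGFP and 293 to 331 CPM in AdNAMPT, with 5 of 8 estimates above 0 and none at an unadjusted p under 0.05. Stellate cell markers summed to 217 to 245 CPM and 210.5 to 225 CPM, with 3 of 6 estimates above 0 and 2 at an unadjusted p under 0.05, 1 in each direction. Bile duct markers summed to 26.5 to 42.2 CPM and 29.3 to 44.3 CPM, with 3 of 5 above 0 and 1 at an unadjusted p under 0.05. Of all tested genes 9.69% had an unadjusted p under 0.05. None of these markers passed the adjusted threshold (limma), and for each list the summed levels of the groups overlapped.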
